A study of Rattus norvegicus with 24 samples.

Results

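Potassium channel genes were described in 2 regions of the rat brain, the nucleus accumbens (NAC), a striatal region that receives dopamine input, and the ventral tegmental area (VTA), which holds dopamine neurons projecting to it. Members were all genes whose symbol is Kcn followed by letters and then digits and nothing more, which gave 93 of the 37403 identifiers in each table. Kcnd2l1 and Kcnrg also begin with Kcn and fall outside that rule. Tissue punches came from F1 male rats (per the series text) that were adult, at least 60 days after birth, and whose fathers had self-administered saline (SAL-sired) or morphine (MOR-sired) for 60 days. The labels name no treatment of the offspring and no strain, litter or animal, so a p-value reflects only how these libraries, labelled biological replicates, vary among themselves. There were 7 libraries of each sire group in NAC and 5 of each in VTA. Transcript levels are given as CPM, the estimated count of a gene scaled to a common library total. Fold changes come from edgeR fits, which scale the libraries further (TMM), so they can differ from the ratio of mean CPM values. The estimated counts were made from scaled transcript abundances, with differences in transcript length taken out, so CPM can also be compared between genes.

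Potassium channels let potassium ions leave or enter a cell and set its resting potential, the shape of its action potentials and its firing rate. The pore is built from alpha subunits: voltage-gated ones (Kcna, Kcnb, Kcnc, Kcnd, Kcnh, Kcnq), inward rectifiers (Kcnj), leak channels (Kcnk) and channels opened by calcium or sodium (Kcnma, Kcnn, Kcnt). Electrically silent subunits (Kcnf, Kcng, Kcns, Kcnv) form no channel alone and modify Kcnb channels, and auxiliary subunits (Kcnab, Kcne, Kcnip, Kcnmb) bind the pore and change its gating. Striatal projection neurons are known for strong inward rectification that holds them at a negative resting potential, and midbrain dopamine neurons for A-type current, calcium-activated potassium current and G protein-gated inward rectifiers.

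Library totals lay between 21.9 and 43.5 M estimated counts, and a library detected 86 to 91 of the 93 genes with 1 count or more. Xist, which coats the X chromosome that is silenced in females, lay between 78.9 and 108 CPM in 4 VTA libraries, SAL-sired VTA 5 and MOR-sired VTA 3, 4 and 5, and at most 0.253 CPM in the other 20, although the series text describes males. SAL-sired VTA 2 held more cortical marker RNA than the other VTA libraries: Slc17a7, which loads glutamate into synaptic vesicles of cortical neurons, was at 84.5 CPM there against 0.519 to 14.9 CPM. The NAC punches differed in makeup. The 12 striatal markers summed to between 673 and 8936 CPM and the 8 cortical markers to between 179.7 and 1906 CPM, so cortical marker RNA was present in every NAC library and varied. Th and Slc6a3, defining markers of dopamine neurons, were at 1293 CPM and 874 CPM or more in every VTA library.

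The channel genes took up more of the NAC libraries than of the VTA libraries. Their summed level was 3131 ± 128 CPM in SAL-sired NAC (SD, n = 7) and 3063 ± 105 CPM in MOR-sired NAC (n = 7), against 2013 ± 171 CPM in SAL-sired VTA (n = 5) and 1842 ± 143 CPM in MOR-sired VTA (n = 5). The lowest NAC library stood at 2918.5 CPM and the highest VTA library at 2212 CPM, so the regions did not overlap, while the sire groups overlapped within each region. A mean of at least 10 CPM was reached by 56 genes in NAC and 40 in VTA, and the 10 highest genes held 50.1% of the sum in NAC and 51.5% in VTA. Kcnab2 and Kcnj10 were among them in both regions. In NAC they included, in falling order, Kcnab2 (318 CPM over 14 libraries), Kcnj4 (197 CPM), Kcnmb4 (173 CPM), Kcnip3 (169 CPM), Kcnip2 (136 CPM), Kcnab1 (135 CPM), Kcnf1 (107 CPM), Kcnj10 (102 CPM) and Kcnh3 (77.1 CPM). In VTA they included Kcnj10 (216 CPM over 10 libraries), Kcnab2 (211 CPM), Kcna6 (94.0 CPM), Kcnd3 (90.1 CPM), Kcnj16 (88.7 CPM), Kcnip4 (61.9 CPM), Kcnc1 (53.5 CPM) and Kcna1 (51.5 CPM). Kcnab2, the cytosolic beta subunit at or near the top of both, was present at 253 to 362 CPM in every NAC library and 161 to 262 CPM in every VTA library. Filtering on low values left 82 genes in NAC, 80 in VTA and 84 in the comparison of regions. Kcna7, Kcna10, Kcne1, Kcnj1, Kcnk15, Kcnk18, Kcnmb3, Kcnu1 and Kcnv2 entered no comparison, and none of these 9 had a group mean above 0.244 CPM.

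**Figure D1:**
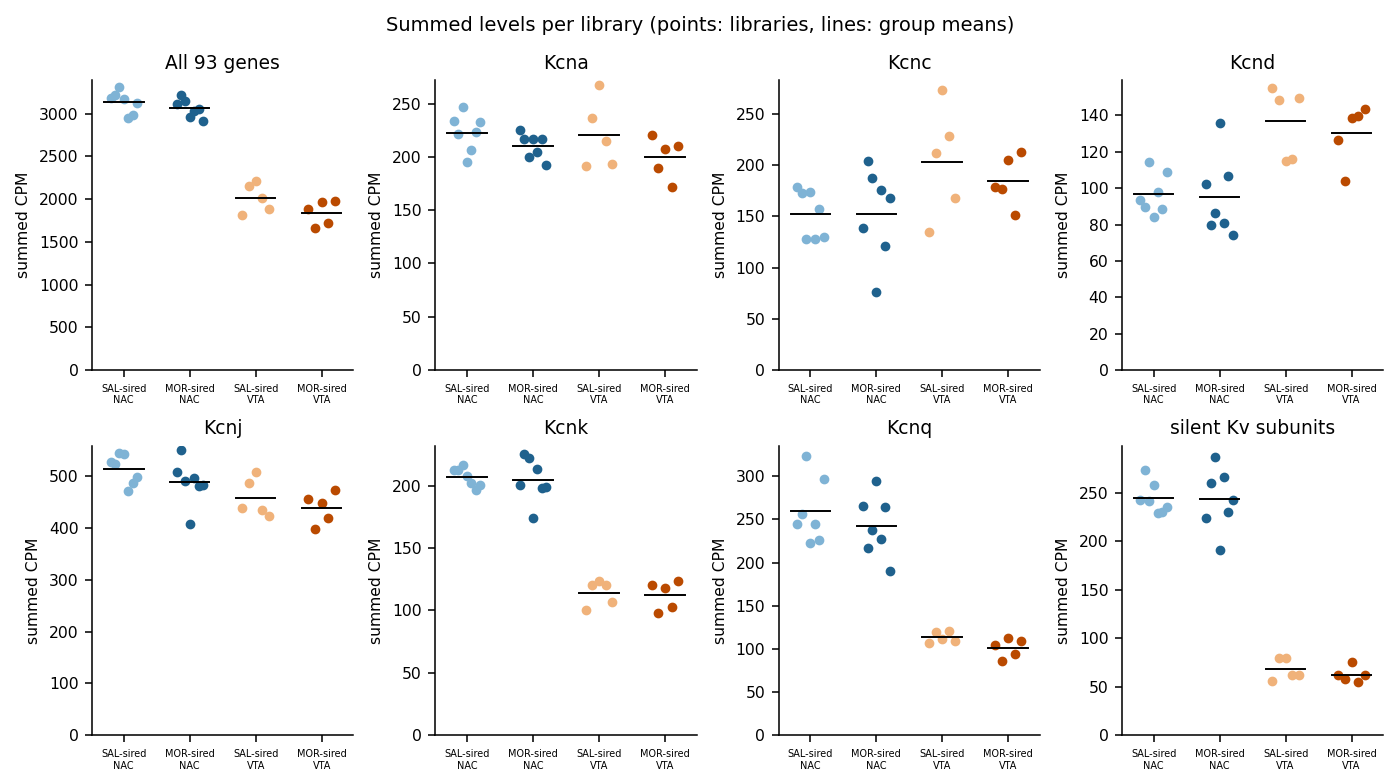
Summed CPM of all 93 potassium channel genes and of 7 subfamilies in each library (points), with group means (lines), for SAL-sired and MOR-sired NAC (7 libraries each) and VTA (5 each), on axes that start at 0. The sums of Kcnk, Kcnq and the silent subunits separate the regions, while those of Kcna, Kcnc and Kcnj overlap.

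The regions were compared in the SAL-sired libraries. Of 84 genes tested, 46 were lower and 15 higher in VTA at an adjusted p under 0.05 in edgeR's quasi-likelihood test. That is 72.6% called, against 58.7% of all 20603 genes tested. Among all genes the directions were balanced, with 29.7% lower and 29% higher, while 54.8% of the channel genes were lower and 17.9% higher. The median log2 fold change was -0.72 over the channel genes and 0.03 over all genes. At 2-fold or more, 36 channel genes were lower and 6 higher, 50% of them against 19.8% of all genes (lower 10%, higher 9.8%). The SAL-sired groups did not overlap in 51 of 84 channel genes (60.7%, against 41.9% of all genes), 39 of them lower in VTA (18.5% of all genes) and 12 higher (23.4%). The same contrast in the MOR-sired libraries called 60 genes, of which 56 were also called in the SAL-sired libraries, all in the same direction. Without the 4 libraries with Xist, 44 genes were lower and 14 higher, and without SAL-sired VTA 2 as well, 43 and 12. Each region was deposited in a table of its own, so region and table cannot be told apart, and in bulk tissue fewer cells of a type and less RNA per cell cannot be told apart.

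**Figure D2:**
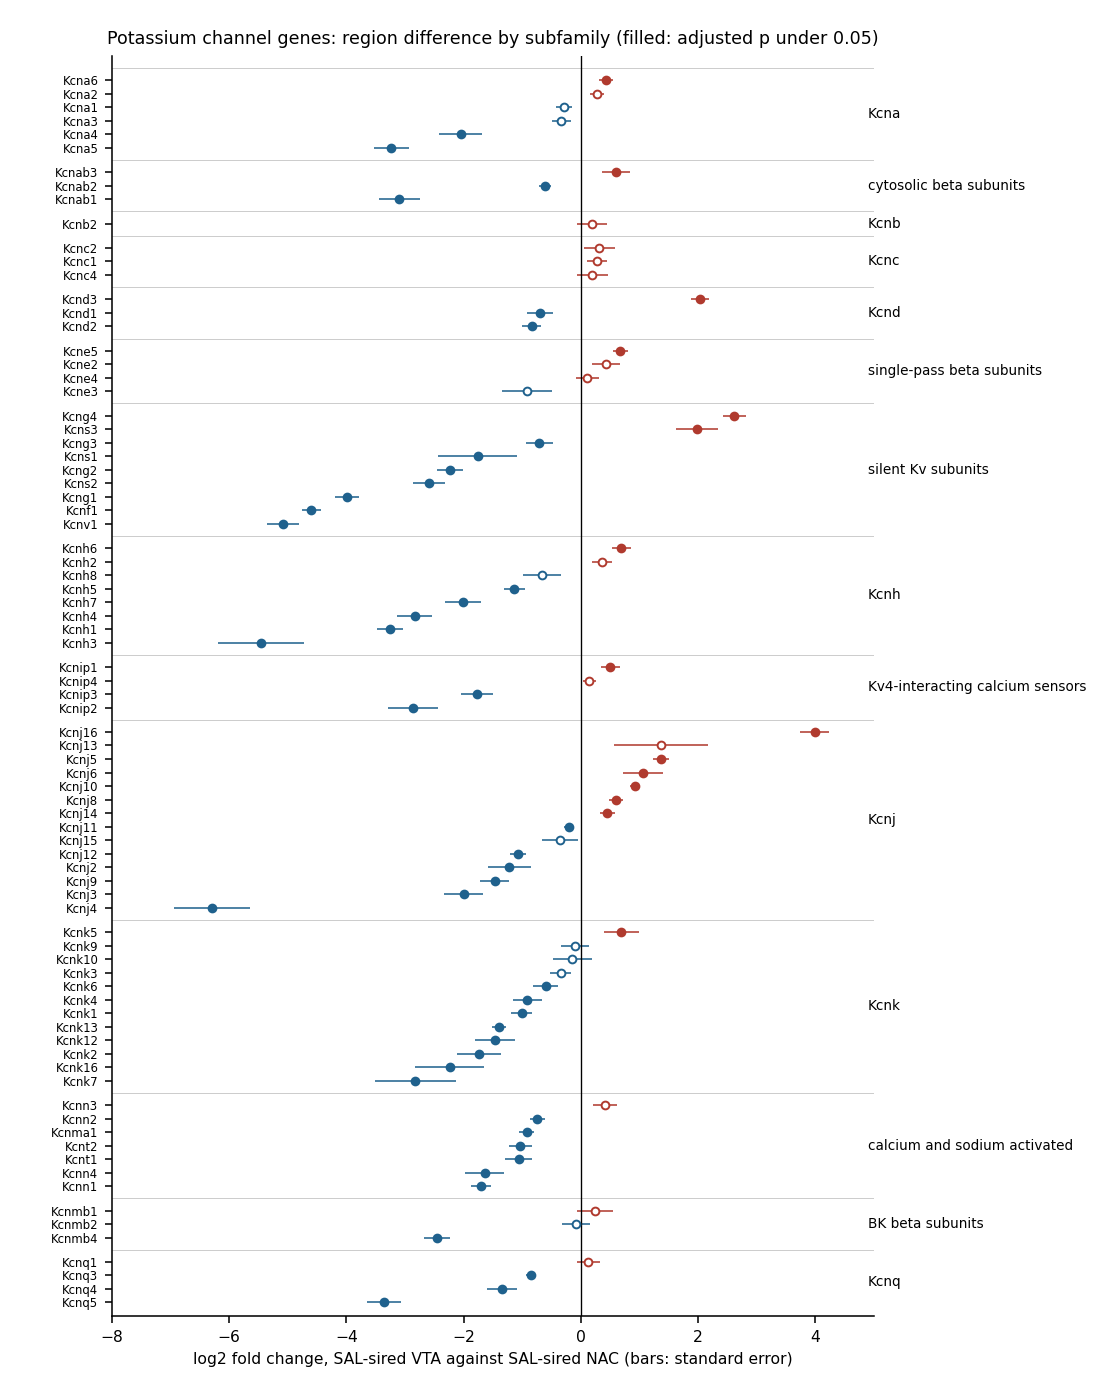
Log2 fold change of tested potassium channel genes in SAL-sired VTA (5 libraries) against SAL-sired NAC (7 libraries), with its standard error (bars), grouped by subfamily. Filled points have an edgeR adjusted p under 0.05, blue points lie below 0 and red points above. Most filled points lie to the left of 0, and the largest differences are Kcnj4 (-6.29) and Kcnj16 (3.99), both inward rectifiers.

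Inward rectifiers (Kcnj) showed the widest spread. Of 14 tested, 6 were higher and 6 lower in VTA, and their summed level overlapped between regions, at 407 to 550.4 CPM in NAC and 397 to 507 CPM in VTA. Kcnj4, a strong inward rectifier that passes current mainly at negative potentials, lay between 166 (median 198) and 239 CPM in SAL-sired NAC and between 168 (median 198) and 216 CPM in MOR-sired NAC. Its levels in SAL-sired VTA libraries 1 to 5 were 2.06, 10.7, 0.452, 1.06 and 0.268 CPM, and in MOR-sired VTA 1.32, 1.40, 0.392, 0.198 and 0.124 CPM. All VTA libraries were far below all NAC libraries, and the highest VTA value was that of SAL-sired VTA 2, the library with the cortical markers. Kcnj4 was 78.3-fold lower in VTA (log2 fold change -6.29 ± 0.64, SE, edgeR adjusted p = 1.87e-08), and without SAL-sired VTA 2 its log2 fold change was -7.87. The strong rectifiers Kcnj2 (log2 fold change -1.22 ± 0.36) and Kcnj12 (-1.07 ± 0.14) were also lower in VTA, by 2.33-fold and 2.10-fold.

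Kcnj16 and Kcnj10 form the heteromeric inward rectifier of glia that clears potassium from the extracellular space. Kcnj16 lay between 2.99 (median 5.99) and 7.75 CPM in SAL-sired NAC, while SAL-sired VTA libraries 1 to 5 stood at 87.3, 85.2, 110.3, 80.3 and 86.4 CPM and MOR-sired ones at 82.3, 77.1, 88.7, 86.0 and 103 CPM. Every VTA library was higher than every NAC library, a 15.9-fold difference (log2 fold change 3.99 ± 0.24, edgeR adjusted p = 3.25e-12). Kcnj10 averaged 108 ± 7.61 CPM in SAL-sired NAC and 218 ± 25.6 CPM in SAL-sired VTA (SD, n = 7 and 5), a 1.90-fold difference (log2 0.92 ± 0.09, edgeR adjusted p = 3.58e-09). Kcnj10 was the more abundant of the pair in every library of both regions. Markers of glia were read beside these genes, and their lists differed. All 7 oligodendrocyte markers were higher in VTA (median log2 fold change 0.98). They summed to 8206 to 11774 CPM in SAL-sired NAC and 24049 to 30691 CPM in SAL-sired VTA. Of 7 astrocyte markers, 5 were higher and 1, Slc1a2, was lower (log2 -0.46, median of the list 0.75). These summed to 1578 to 1741 CPM in SAL-sired NAC and 1704 to 2629 CPM in SAL-sired VTA. All 3 oligodendrocyte precursor markers were higher (median 0.44). Of 6 microglia markers, 1 was higher and 1 lower (median 0.06). Their part in the channel differences was not tested.

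The promoters of Kcnj4 and Kcnj16, the genes with the largest differences in each direction, are shown with their 300 bases around the annotated start (RefSeq, GRCr8), at chr7:112954498-112954797 (minus strand) and chr10:96517074-96517373 (plus strand), written 5′ to 3′ on the gene's strand. Kcnj4 has 65.7% G and C bases there and Kcnj16 34%, against a median of 52.3% over the 27457 rat promoters of the RefSeq table. Neither holds any of 5 motifs searched on both strands, the GC box and the TATA motif among them.
Kcnj4: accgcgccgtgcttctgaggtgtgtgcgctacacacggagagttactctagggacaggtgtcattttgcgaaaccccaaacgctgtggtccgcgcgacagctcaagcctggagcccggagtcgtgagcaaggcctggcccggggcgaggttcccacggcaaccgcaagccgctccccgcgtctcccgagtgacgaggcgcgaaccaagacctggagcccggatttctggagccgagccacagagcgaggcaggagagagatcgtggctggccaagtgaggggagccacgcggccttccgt
Kcnj16: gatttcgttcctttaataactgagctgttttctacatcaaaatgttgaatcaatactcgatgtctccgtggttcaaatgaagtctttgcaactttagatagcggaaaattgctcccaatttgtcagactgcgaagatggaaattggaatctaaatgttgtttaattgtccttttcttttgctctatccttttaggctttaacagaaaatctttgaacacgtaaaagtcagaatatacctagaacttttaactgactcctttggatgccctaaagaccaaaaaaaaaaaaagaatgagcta

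Kcnj3, Kcnj5, Kcnj6 and Kcnj9 encode the G protein-gated inward rectifiers, which open when receptors such as the mu opioid or dopamine autoreceptors release G protein beta-gamma subunits. They split between the regions. Kcnj3 was 3.99-fold lower in VTA (log2 -1.99 ± 0.33, edgeR adjusted p = 2.2e-05) and Kcnj9 2.77-fold lower (log2 -1.47 ± 0.25, adjusted p = 2.12e-05). Kcnj6, the subunit through which dopamine neurons are known to be inhibited by their autoreceptors, was 2.10-fold higher (log2 1.07 ± 0.35, edgeR adjusted p = 0.011). Kcnj6 stood at 50.7, 44.3, 34.1, 35.4 and 52.7 CPM in SAL-sired VTA libraries 1 to 5 and at 41.2, 31.7, 47.7, 50.8 and 48.1 CPM in MOR-sired ones. In NAC it lay between 12.2 (median 20.7) and 26.9 CPM in SAL-sired libraries and between 2.88 (median 26.4) and 30.5 CPM in MOR-sired libraries, without overlap with VTA. The SAL-sired range of Kcnj3 was 29.3 to 68.8 CPM for NAC and 6.68 to 16.4 CPM for VTA. In every VTA library Kcnj6 had the highest level of the 4 genes, and in every NAC library Kcnj9 did. Without the 4 VTA libraries with Xist, the log2 fold change of Kcnj6 was 0.96 and it did not pass (adjusted p = 0.0511). Kcnj5 was low in both regions, at 1.98 ± 0.269 CPM in SAL-sired NAC and 5.42 ± 0.564 CPM in SAL-sired VTA, and 2.58-fold higher in VTA. Kcnj8, a pore of ATP-sensitive channels known from mural cells of blood vessels, was 1.52-fold higher in VTA (log2 0.60 ± 0.12). All 5 endothelial markers were higher in VTA too, and of 6 mural and fibroblast markers 2 were higher and 1, the mural receptor Pdgfrb, was lower (log2 -0.40). Their part was not tested. Its neuronal counterpart Kcnj11 differed by 1.15-fold (log2 -0.20 ± 0.09, edgeR adjusted p = 0.0446), a call that was lost in 20 of 33 alternative fits.

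**Figure D3:**
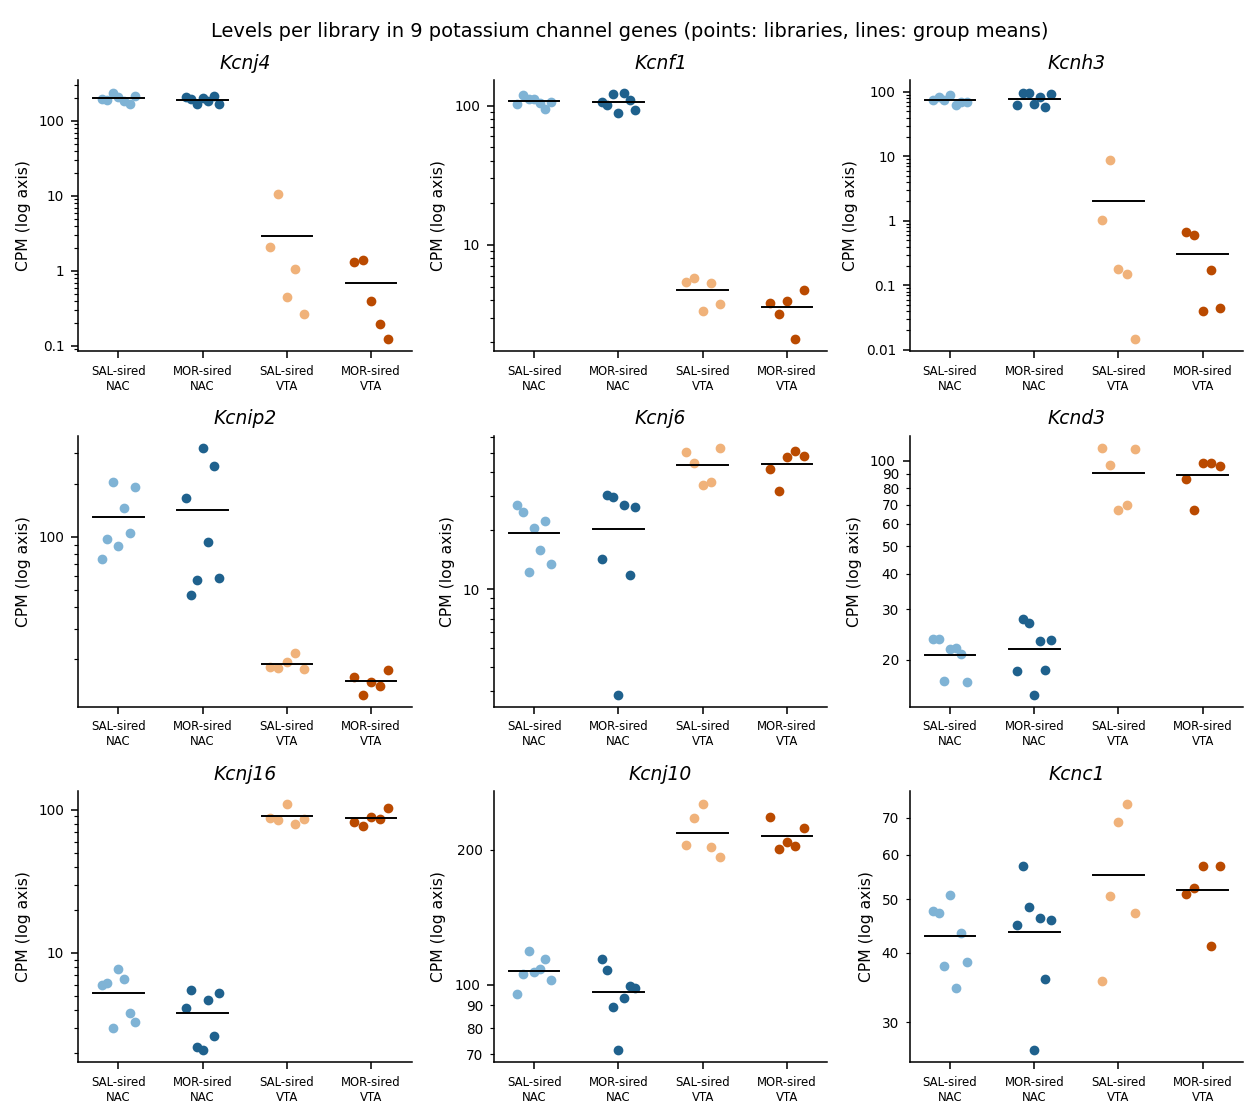
CPM on log axes of 9 potassium channel genes in each library (points) with group means (lines) in SAL-sired and MOR-sired NAC (7 libraries each) and VTA (5 each). Kcnj4, Kcnf1, Kcnh3 and Kcnip2 are lower in VTA without overlap, Kcnj6, Kcnd3, Kcnj16 and Kcnj10 are higher without overlap, and Kcnc1 overlaps.

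The electrically silent subunits had the lowest median of the subfamilies, at -2.23 over 9 tested genes, of which 7 were lower and 2 higher in VTA. Kcnf1 lay between 94.5 (median 107) and 119 CPM in SAL-sired NAC and at 5.45, 5.80, 3.35, 5.29 and 3.77 CPM in SAL-sired VTA, a 24.2-fold difference (log2 -4.60 ± 0.17, edgeR adjusted p = 6.68e-16). Kcnv1 was 33.8-fold lower (log2 -5.08 ± 0.27) and Kcng1 15.9-fold lower (log2 -3.99 ± 0.20), and in all 3 genes no VTA library reached any NAC library. Kcng4 and Kcns3 went the other way. Kcng4 lay between 2.59 (median 3.21) and 4.07 CPM in SAL-sired NAC and at 10.5, 22.7, 37.9, 22.0 and 14.3 CPM in SAL-sired VTA (log2 2.62 ± 0.20, edgeR adjusted p = 1.6e-10), and Kcns3 was 3.97-fold higher (log2 1.99 ± 0.36). Kcnb2, a pore subunit that the silent subunits modify, was at 5.38 ± 0.911 CPM in SAL-sired NAC and 6.58 ± 0.637 CPM in SAL-sired VTA and did not pass (log2 0.20 ± 0.26).

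Of 8 Kcnh genes, relatives of the ether-a-go-go channel, 5 were lower and 1 higher in VTA. Kcnh3 lay between 63.7 (median 73.8) and 91.1 CPM in SAL-sired NAC and at 1.04, 8.68, 0.178, 0.15 and 0.0148 CPM in SAL-sired VTA libraries 1 to 5. Only SAL-sired VTA 2 was above 1.04 CPM, and MOR-sired VTA libraries were at or below 0.668 CPM. The difference was 43.8-fold (log2 -5.45 ± 0.73, edgeR adjusted p = 1.11e-06), and without SAL-sired VTA 2 the log2 fold change was -8.08. Kcnh1 was 9.55-fold lower (log2 -3.26 ± 0.23). Kcnh2, the channel known for repolarising the heart, was at 30.0 ± 4.23 CPM in SAL-sired NAC and 41.1 ± 5.45 CPM in SAL-sired VTA and did not pass, but was called higher in VTA in the MOR-sired libraries (log2 0.49, edgeR adjusted p = 0.0137). Of 5 Kcnq genes, whose products carry the M current that muscarinic receptors suppress, 4 were lower and none was higher in VTA. Kcnq3 was 1.80-fold lower (log2 -0.85 ± 0.08) and Kcnq5 10.3-fold (log2 -3.36 ± 0.29). Kcnq5 was at 56.0 ± 11.6 CPM in SAL-sired NAC and 5.85 ± 3.77 CPM in SAL-sired VTA, where SAL-sired VTA 2 was its highest library.

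A-type channels consist of Kcnd pores and Kcnip calcium sensors, and members of both differed in opposite directions between the regions. Of 3 Kcnd genes 1 was higher and 2 were lower in VTA, and of 4 Kcnip genes likewise 1 and 2. Kcnd3 stood at 111, 97.0, 67.2, 70.0 and 109.9 CPM in SAL-sired VTA and at 86.5, 67.0, 98.5, 98.6 and 95.7 CPM in MOR-sired VTA. In NAC it lay between 16.7 (median 21.9) and 23.7 CPM in SAL-sired libraries, below every VTA library, and the difference was 4.11-fold (log2 2.04 ± 0.16, edgeR adjusted p = 2.37e-10). Kcnd2, the highest Kcnd gene in NAC, was 1.79-fold lower in VTA (65.1 ± 11.4 CPM against 38.8 ± 4.21 CPM, log2 -0.84 ± 0.16). Kcnd2 exceeded Kcnd3 in every NAC library and Kcnd3 exceeded Kcnd2 in every VTA library. Among the sensors, Kcnip2 was 7.28-fold lower (log2 -2.86 ± 0.42), Kcnip3 3.41-fold lower (log2 -1.77 ± 0.27) and Kcnip1 1.42-fold higher (log2 0.51 ± 0.16). Kcnip4, at 49.5 ± 3.57 CPM in SAL-sired NAC and 58.4 ± 10.8 CPM in SAL-sired VTA, did not pass. In the MOR-sired libraries Kcnip4 was called higher in VTA (log2 0.43, edgeR adjusted p = 0.0019) and Kcnip1 was not called (0.29, adjusted p = 0.141).

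The Kcna genes, whose products are mostly delayed rectifiers of axons and terminals, were close between regions in sum (192 to 247 CPM in NAC and 171 to 267 CPM in VTA). Of 6 tested, 2 were lower and 1 higher in VTA. Kcna6, the highest Kcna gene in both regions, was 1.35-fold higher in VTA (65.3 ± 7.33 CPM against 93.9 ± 3.84 CPM, log2 0.43 ± 0.11, edgeR adjusted p = 0.00231). Kcna4, an A-type pore, was 4.14-fold lower (log2 -2.05 ± 0.37) and Kcna5 9.38-fold lower (log2 -3.23 ± 0.29). Kcna1 and Kcna2, which are known from the juxtaparanodes of myelinated axons, did not pass (log2 -0.29 ± 0.13 and 0.28 ± 0.12). The oligodendrocyte markers were all higher in VTA, and a link to Kcna1 and Kcna2 was not tested. Of the beta subunits that bind Kcna pores, Kcnab1 was 8.54-fold lower in VTA (log2 -3.09 ± 0.35), Kcnab2 1.52-fold lower (log2 -0.60 ± 0.10) and Kcnab3 1.52-fold higher (log2 0.60 ± 0.24, edgeR adjusted p = 0.0365), a call lost in 12 of 33 alternative fits.

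Kcnc1 and Kcnc2, which encode fast delayed rectifiers of rapidly firing neurons, did not pass between the regions, and neither did Kcnc4. Their fitted log2 values were 0.27 ± 0.17 for Kcnc1 (edgeR adjusted p = 0.172), 0.32 ± 0.26 for Kcnc2 and 0.20 ± 0.26 for Kcnc4. Kcnc1 stood at 35.6, 50.5, 68.9, 74.1 and 47.1 CPM in SAL-sired VTA libraries 1 to 5 and lay between 34.6 (median 43.4) and 50.8 CPM in SAL-sired NAC, and the groups overlapped.

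Of 12 leak channel genes (Kcnk), 8 were lower and 1 higher in VTA. Kcnk1, the highest Kcnk gene in both regions, was 2.01-fold lower (64.1 ± 8.18 CPM against 34.1 ± 4.25 CPM, log2 -1.01 ± 0.18) and Kcnk2, a mechanically and lipid gated leak channel, 3.33-fold lower (log2 -1.74 ± 0.37). The acid-sensitive leak channels Kcnk3 (log2 -0.34 ± 0.18) and Kcnk9 (-0.10 ± 0.24) did not pass. Of 7 calcium- and sodium-activated channel genes, 6 were lower in VTA. Kcnma1, the pore of the large-conductance channel, was 1.89-fold lower (log2 -0.92 ± 0.13), and its neuronal beta subunit Kcnmb4 5.48-fold lower (log2 -2.45 ± 0.22). Of the small-conductance channels, Kcnn1 (log2 -1.70 ± 0.17) and Kcnn2 (-0.74 ± 0.13) were lower. Kcnn3, the small-conductance channel known for pacing dopamine neurons, was the exception in its group, at 17.1 ± 4.33 CPM in SAL-sired NAC and 24.1 ± 6.70 CPM in SAL-sired VTA, and did not pass (log2 0.41 ± 0.21, edgeR adjusted p = 0.0935). In the MOR-sired libraries it was called higher in VTA (log2 0.89, edgeR adjusted p = 0.000754). Of 4 tested single-pass beta subunits, Kcne5 alone was called (log2 0.67 ± 0.13, 1.59-fold higher).

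Markers of the main cell types differed between the regions as well. Of 12 striatal markers 11 were lower in VTA and of 8 cortical markers all 8 (median log2 fold change -4.16 and -4.06), and of 10 dopamine neuron markers 9 were higher (median 7.59). Of 8 genes expressed by neurons in general, chosen after their values were seen, 4 were lower and 1 higher in VTA (median -0.18). Rbfox3, a nuclear splicing factor of most neurons, was among the lower ones (log2 fold change -1.79). The part of these markers in the channel differences was not tested.

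Several channel genes that lie next to each other on a chromosome in the RefSeq order (GRCr8) differed in opposite directions between the regions. Kcnj16 was higher in VTA and its neighbour Kcnj2 lower, and Kcnj10 was higher and Kcnj9 lower. Kcnk5 was higher (log2 0.69 ± 0.30, edgeR adjusted p = 0.0499) and its neighbour Kcnk16 lower (-2.23 ± 0.59). Both were low, Kcnk5 at 0.367 and 0.631 CPM in SAL-sired NAC and VTA and Kcnk16 at 1.35 and 0.305 CPM, with overlapping libraries. How often neighbouring genes in general differ in opposite directions was not counted. In the Kcna5, Kcna1 and Kcna6 cluster the fitted values ran from -3.23 over -0.29 to 0.43. Kcnj8 and the neighbouring Abcc9, which encodes the sulfonylurea receptor that pairs with it, were both higher (log2 0.60 and 0.84).

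Within NAC, channel levels were set against the striatal marker score, the mean log2 CPM of the 12 striatal markers, in a fit that also held the sire group. The score ran from 4.81 in MOR-sired NAC 2 to 8.89 in MOR-sired NAC 4. Of 82 channel genes, 21 rose and 36 fell with the score at an edgeR adjusted p under 0.05, together 69.5% against 33.6% of all 18220 genes (rising 25.6% against 17.2%, falling 43.9% against 16.4%). A slope is the change in log2 level per unit of score. Kcnip2 lay between 74.6 (median 105) and 204 CPM in SAL-sired NAC and between 46.8 (median 93.0) and 319 CPM in MOR-sired NAC, lowest in the library of lowest score and highest in that of highest score (slope 0.69 ± 0.03, edgeR adjusted p = 2.12e-09). Kcnk2 rose likewise from 18.1 to 101 CPM (slope 0.63 ± 0.03, adjusted p = 7.51e-10), as did Kcna4 (0.56 ± 0.04), Kcnab1 (0.50 ± 0.03) and Kcnj2 (0.60 ± 0.05). Kcnk1 fell from 83.4 to 34.8 CPM across the libraries (slope -0.29 ± 0.03, edgeR adjusted p = 6.31e-06), and so did Kcnh7 (-0.41 ± 0.05), Kcnd3 (-0.21 ± 0.03) and Kcng1 (-0.25 ± 0.03).

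Members of some subfamilies fell together along this axis. The G protein-gated rectifiers Kcnj3 (slope -0.46 ± 0.07), Kcnj6 (-0.56 ± 0.10) and Kcnj9 (-0.37 ± 0.05) all fell as the striatal score rose, and MOR-sired NAC 4 had the lowest level of each, Kcnj6 being at 2.88 CPM there. Without that library the slope of Kcnj6 was -0.42. Kcnc2 (-0.44 ± 0.06), Kcnc4 (-0.42 ± 0.07) and Kcnc1 (-0.19 ± 0.04) fell as well. Of 11 Kcnk genes 3 rose and 7 fell. Kcnj4 (slope 0.07 ± 0.03), Kcnf1 (-0.02 ± 0.03) and Kcnh1 (0.02 ± 0.04), 3 of the genes lowest in VTA relative to NAC, did not pass, Kcnj4 lying between 166 and 239 CPM over the 14 NAC libraries. Of the genes called in both comparisons, 17 rose with the score and were lower in VTA, and 19 fell with the score and were also lower in VTA. A further 6 fell and were higher in VTA, Kcnj6 and Kcnd3 among them, and 1 rose and was higher. The same counts were not made over all genes. Of the 61 channel genes called between the regions, 46 were lower in VTA, so most joint calls lie on that side for either slope. MOR-sired NAC 4, the library of highest striatal score, also had the lowest cortical marker sum (179.7 CPM). With the cortical score as a covariate, an alternative chosen after the data were seen, 10 channel genes rose and 2 fell (all genes 3.47% called). Kcnip2 (slope 0.59), Kcnk2 (0.57) and Kcnk1 (-0.16) were still called in that fit, while Kcnj6 (-0.06), Kcnj3 (-0.17), Kcnj9 (-0.10), Kcnc1, Kcnc2 and Kcnc4 were not. The cortical score, the mean log2 CPM of the cortical markers, tended to fall as the striatal score rose. It was 3.11 in MOR-sired NAC 4 and 6.11 in MOR-sired NAC 2, the libraries of highest and lowest striatal score. Because the scores share this axis, a call lost in that fit cannot be assigned to either score.

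Within VTA the same was done with the dopamine neuron score, the mean log2 CPM of 10 dopamine neuron markers, which ran only from 7.02 in SAL-sired VTA 3 to 7.99 in SAL-sired VTA 5. Of 80 channel genes, 3 rose and 0 fell with the score (3.75%, against 0.432% of all 19923 genes, 0.412% rising and 0.0201% falling). Kcnn3 stood at 29.7, 22.5, 16.2, 20.0 and 32.2 CPM in SAL-sired VTA libraries 1 to 5 and at 24.8, 18.7, 30.9, 30.9 and 27.7 CPM in MOR-sired ones, lowest in SAL-sired VTA 3 and highest in SAL-sired VTA 5 (slope 0.91 ± 0.11, edgeR adjusted p = 0.0151). Kcnj6 (slope 0.68 ± 0.09, adjusted p = 0.0217) and Kcnd3 (0.70 ± 0.12, adjusted p = 0.0478) rose with it. These are a pacing channel, an autoreceptor-gated channel and an A-type pore, each known from dopamine neurons. The calls rested on single libraries: no channel gene was called without SAL-sired VTA 1, 3 or 5, and 1, Kcnn3, without SAL-sired VTA 4 or MOR-sired VTA 4. Of the 10 fits that left out 1 library each, Kcnd3 was not called in 9, Kcnj6 in 5 and Kcnn3 in 3, and of all 19 alternative fits Kcnd3 was not called in 15, Kcnj6 in 10 and Kcnn3 in 7. Over these alternatives the slope lay between 0.68 and 1.09 for Kcnn3, 0.57 and 0.79 for Kcnj6 and 0.46 and 0.87 for Kcnd3. The 4 libraries with Xist all had scores of 7.73 or more. Without them no channel gene was called, and the slopes were 0.97 for Kcnn3, 0.70 for Kcnj6 and 0.86 for Kcnd3.

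The promoters of the 3 genes that rose with the dopamine neuron score are shown (RefSeq, GRCr8), with the GC box (GGGCGG, either strand) in capitals, at chr2:177234090-177234389 (plus strand), chr11:47778299-47778598 (minus strand) and chr2:195626066-195626365 (plus strand). Kcnj6 and Kcnd3 hold 1 GC box each, and Kcnn3 holds none of the 5 motifs.
Kcnn3: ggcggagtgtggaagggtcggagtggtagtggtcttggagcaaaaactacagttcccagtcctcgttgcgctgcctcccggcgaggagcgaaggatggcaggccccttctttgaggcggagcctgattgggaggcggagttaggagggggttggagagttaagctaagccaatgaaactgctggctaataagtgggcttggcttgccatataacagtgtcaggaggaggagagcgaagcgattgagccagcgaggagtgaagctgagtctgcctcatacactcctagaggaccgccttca
Kcnj6: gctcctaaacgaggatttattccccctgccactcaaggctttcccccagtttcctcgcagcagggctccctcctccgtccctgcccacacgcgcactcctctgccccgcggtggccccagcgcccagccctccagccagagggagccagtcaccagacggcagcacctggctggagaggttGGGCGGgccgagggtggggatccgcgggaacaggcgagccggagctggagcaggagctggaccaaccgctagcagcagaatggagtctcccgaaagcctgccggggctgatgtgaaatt
Kcnd3: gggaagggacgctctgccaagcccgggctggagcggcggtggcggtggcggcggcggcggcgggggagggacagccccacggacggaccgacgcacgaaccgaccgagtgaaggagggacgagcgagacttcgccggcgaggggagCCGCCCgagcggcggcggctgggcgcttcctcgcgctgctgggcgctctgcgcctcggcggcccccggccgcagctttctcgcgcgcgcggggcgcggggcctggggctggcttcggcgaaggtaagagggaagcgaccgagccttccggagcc

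**Figure D4:**
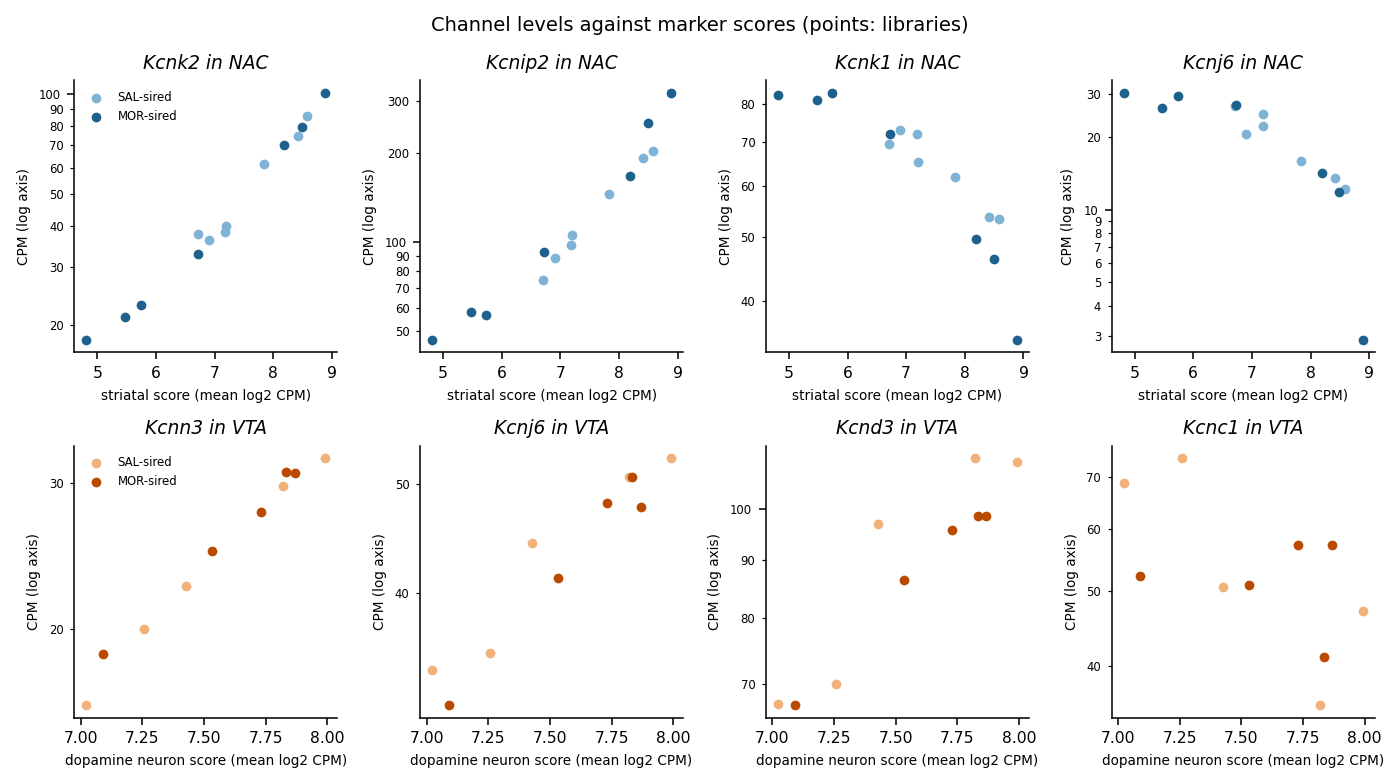
CPM on log axes of 4 potassium channel genes in 14 NAC libraries against the striatal marker score (upper row) and of 4 in 10 VTA libraries against the dopamine neuron marker score (lower row), each point a library. Kcnk2 and Kcnip2 rise and Kcnk1 and Kcnj6 fall with the striatal score, Kcnn3, Kcnj6 and Kcnd3 rise with the dopamine neuron score, and Kcnc1 in VTA did not pass the test.

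The study's own question was whether the offspring of morphine-exposed fathers differ from those of saline-exposed fathers. In NAC no channel gene of 82 was called in edgeR, as no gene of all 18220 was (0%). At an unadjusted p under 0.05 there were 3 channel genes (3.66%), against 6.21% of all genes, and DESeq2 called no channel gene. The 3 were Kcne3, Kcnj12 and Kcnj15. Kcne3, a single-pass beta subunit, was low, at 0.398 ± 0.156 CPM in the SAL-sired and 0.656 ± 0.164 CPM in the MOR-sired group, and had the smallest p and a positive value (log2 0.70 ± 0.28, edgeR adjusted p = 0.722). Kcnj15, an inward rectifier, was also below a mean of 1 CPM (log2 -0.72 ± 0.33, adjusted p = 0.783). No channel gene had groups that did not overlap (0 of 82, against 0.0823% of all genes). Kcnj12 averaged 16.7 ± 1.26 CPM in the SAL-sired group and 15.3 ± 1.20 CPM in the MOR-sired group (SD, n = 7 each; log2 -0.14 ± 0.06, edgeR adjusted p = 0.783) and Kcnq3 56.6 ± 6.90 and 50.9 ± 5.43 CPM (log2 -0.17 ± 0.08). Kcnj10 (log2 -0.17 ± 0.09), Kcna3 (-0.25 ± 0.14) and Kcnj16 (-0.49 ± 0.29) came next by p among the genes with a mean of at least 1 CPM, and their groups overlapped too. The fitted value was lower in MOR-sired NAC for 57 of 82 channel genes (69.5%, against 52% of all genes), with a median log2 fold change of -0.07 against 0.00. That count was not tested, and many channel genes varied together along the striatal score, so they are not separate observations.

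In VTA no channel gene of 80 was called either, as no gene of all 19923 was (0%). At an unadjusted p under 0.05 there were 5 channel genes (6.25%), against 5.31% of all genes, and DESeq2 called none of the channel genes. Kcnip2 stood at 18.2, 18.0, 19.3, 21.8 and 17.6 CPM in SAL-sired VTA libraries 1 to 5 and at 15.8, 12.6, 15.0, 14.2 and 17.4 CPM in MOR-sired ones. It was the 1 channel gene whose sire groups did not overlap (1.25%, against 1.23% of all genes), with the lowest SAL-sired library just above the highest MOR-sired one (log2 -0.26 ± 0.07, edgeR adjusted p = 0.793). Kcnk9 averaged 27.7 ± 4.34 CPM in the SAL-sired group and 36.1 ± 6.77 CPM in the MOR-sired group (SD, n = 5 each; log2 0.46 ± 0.12, adjusted p = 0.793), and the groups overlapped. Kcnq5 (log2 -1.08 ± 0.39) and Kcns2 (-0.74 ± 0.28) had their highest value in SAL-sired VTA 2, 11.5 and 6.17 CPM, and without that library the values were -0.69 and -0.39. Kcnj13, known from choroid plexus and retinal epithelium, had SAL-sired values of 0.583 to 5.64 CPM and MOR-sired values of 0.109 to 0.911 CPM (log2 -1.74 ± 0.71). Without SAL-sired VTA 1, its highest library, the log2 value was -0.97. The 4 choroid plexus and ependymal markers had summed levels of 11.2 to 48.9 CPM in the SAL-sired group and 8.21 to 11.3 CPM in the MOR-sired group. Ttr among them was highest in SAL-sired VTA 4 (43.6 CPM), not in SAL-sired VTA 1 (39.7 CPM). The 6 mural and fibroblast markers summed to 267 to 365 CPM and 236 to 346 CPM in these groups. Of these, Col1a2 was highest in SAL-sired VTA 1 (58.5 CPM), while Acta2 was highest in SAL-sired VTA 3 (21.8 CPM). The part of both lists was not tested. The 5 serotonin neuron markers had sums of 11.4 to 103 CPM in the SAL-sired group and 111 to 280.1 CPM in the MOR-sired group, and their part was not tested. The fitted value was lower in MOR-sired VTA for 56 of 80 channel genes (70%, against 52.6% of all genes), with a median log2 fold change of -0.08 against -0.01. That count was not tested, and it was not repeated without SAL-sired VTA 2. Xist marked 1 of 5 SAL-sired and 3 of 5 MOR-sired VTA libraries. Without those 4 libraries no channel gene was called, and the log2 values were -0.29 for Kcnip2 and 0.53 for Kcnk9.

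**Figure D5:**
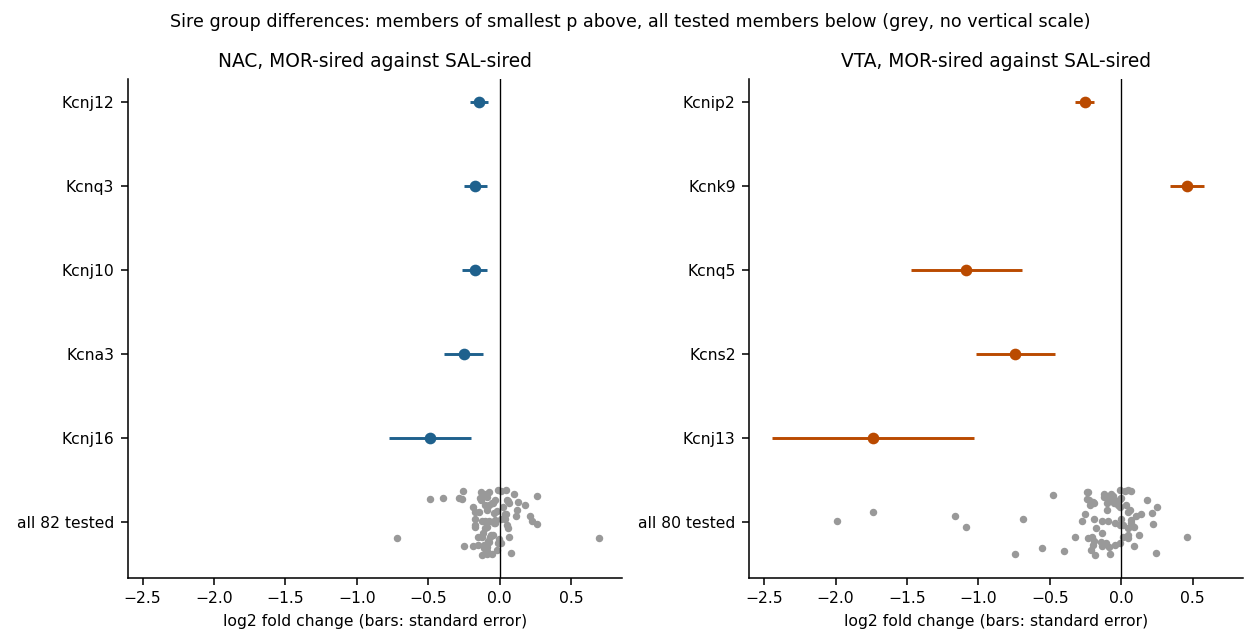
Log2 fold change of MOR-sired against SAL-sired libraries in NAC (left, 7 against 7) and VTA (right, 5 against 5) for the 5 potassium channel genes of smallest p among those with a mean of at least 1 CPM in the region, with standard errors (bars), and for all tested channel genes (grey points, spread vertically without a scale). No gene passed an edgeR adjusted p under 0.05 in either region, and most grey points lie within 0.5 of 0.

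The difference of the sire effects between the regions was not called for any of 84 channel genes (0%, as for all 20603 genes). At an unadjusted p under 0.05 there were 3 (3.57%, against 4.77%), namely Kcnq5 (VTA minus NAC, -0.98 ± 0.38), Kcnh3 (-2.78 ± 1.12) and Kcnj4 (-1.99 ± 0.85), and DESeq2 called none of the channel genes. All 3 had their highest VTA level in SAL-sired VTA 2. Without it the differences were -0.61, -0.16 and -0.41.

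Genes whose products bind or accompany potassium channels were read beside them, 25 in all, of which 24 were tested. Between the regions 9 were higher and 12 lower in VTA. Kctd16 and Kctd8, auxiliary subunits of the GABA-B receptor that gates Kcnj channels, were 5.42-fold (log2 -2.44 ± 0.15) and 4.52-fold lower (-2.18 ± 0.49). Dlg4, the postsynaptic scaffold that binds Kcna and Kcnj tails, was 2.95-fold lower (log2 -1.56 ± 0.10). Hcn3 (log2 1.20 ± 0.12), Hcn2 (0.74 ± 0.09) and Hcn4 (0.73 ± 0.23), pores of the hyperpolarisation-activated cation current, were higher in VTA. Dpp6, an auxiliary subunit of Kcnd channels, was higher (log2 0.25 ± 0.10) and its relative Dpp10 lower (-0.46 ± 0.09). Lrrc55, an auxiliary subunit of the large-conductance channel, was higher in VTA (log2 0.94 ± 0.17) and was the 1 partner that rose with the dopamine neuron score (slope 0.70 ± 0.12, edgeR adjusted p = 0.0422). With the striatal score 9 partners rose and 5 fell in NAC, Kctd8 most steeply (slope 0.82 ± 0.04). No partner was called between sire groups in either region, or for the difference between them.

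Promoters of 63 of the 93 channel genes were in the RefSeq table. Their median G and C content was 61%, against 52.3% over all 27457. The GC box GGGCGG, a site of Sp-family factors, occurred on either strand in 31 of them (49.2%, against 34.9% of all promoters). TATAAA was found in 2, Kcnj1 and Kcnj13 (3.17%, against 14.3%). AAAGGTCA, the site of Nr4a factors, was found in 3, Kcnc4, Kcne5 and Kcnh1 (4.76%, against 1.29%), CACGTG in 3 (4.76%, against 6.65%) and TGACGTCA in none (0%, against 1.91%). Each was searched on both strands, and no motif searched contains another.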

How the data were processed

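RNA from bilateral NAC and VTA punches was sequenced from directional libraries, per the labels. The deposited tables, 1 for each region, hold estimated counts per gene symbol, and the submitters' processing notes name Trim Galore, kallisto and DESeq2. Their versions, the genome build and the annotation: not given in the sources used here. The deposited file names describe the estimated counts as scaled transcript abundances, so differences in transcript length are already taken out. All 24 libraries were used. Counts were rounded, genes of low count removed (filterByExpr) and library sizes scaled by TMM, and edgeR 4.0.16 (quasi-likelihood test, R 4.3.3) was fitted on all genes kept, with Benjamini-Hochberg adjustment over all of them. Sire groups were fitted within each region, region and the difference of sire effects over all libraries, and slopes within a region with sire group in the model. Marker scores are means of log2 CPM with a prior count of 2. The threshold for a call was an adjusted p of 0.05. DESeq2 1.42.0 served as an alternative. On simulated counts with 200 changed genes, 2-fold changes were recovered in 84% of cases for the NAC sire comparison (18220 genes) and 52% for VTA (19923 genes). At 1.5-fold, 66% were recovered for NAC and 36% for VTA. Genes were simulated independently of each other, without shared differences in punch makeup, so recovery in the real libraries may be lower. Replicate numbers were not used to pair libraries in the main fits, and the labels do not say whether NAC and VTA libraries share animals. Genes were named by size of change (mean of at least 5 CPM), smallest p (mean of at least 1 CPM for sire comparisons), highest level and role. Kcnab2, Kcne3, Kcnh2, Kcnj15, Kcnk5, Kcnk16 and Kcnmb4 were added after their values were seen. The members, gene lists and tests were chosen with earlier results of these data known. A few genes are not reported here.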

Additional observations from a re-analysis of the deposited data

Results flagged for a closer look

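Over 53 named channel genes and the summed level of all members, 216 groups of libraries were examined, and 9 held a library far from the others of its group, and chance alone flags about 1 in 20 groups. Of these, 3 came from SAL-sired VTA 2, the library with the cortical markers: Kcnj4 was at 10.7 CPM there (next highest 2.06 CPM), Kcnh3 at 8.68 CPM (next 1.04 CPM) and Kcns2 at 6.17 CPM (next 3.04 CPM). Kcnj16 stood at 110.3 CPM in SAL-sired VTA 3 (next 87.3 CPM), the library of lowest dopamine neuron score. MOR-sired VTA 3 was highest for Kcns3 at 35.5 CPM (next 24.6 CPM) and lowest for Kcne5 at 24.9 CPM (next 31.3 CPM). Kcna2 was lowest in MOR-sired VTA 4, at 34.2 CPM (next 42.3 CPM). In NAC, Kcnma1 was lowest in SAL-sired NAC 7, at 21.1 CPM (next 33.9 CPM), and Kcnj13 highest in MOR-sired NAC 5, at 1.68 CPM (next 0.641 CPM). The causes were not tested.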

How the results depend on the processing

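Counts of channel genes called were equal or stayed within 1.5 times in 240 of 258 combinations of result and alternative. A count of 0 that stayed 0 was taken as equal, as in the sire comparisons when 1 library was left out. Results for the regions and the striatal score entered as a total and by direction, so the combinations are not separate checks. Leaving out 1 library at a time gave 59 to 63 genes between the regions, 51 to 58 along the striatal score, 0 to 3 along the dopamine neuron score and 0 in each sire comparison. Along the dopamine neuron score, 0 genes were called without the Xist libraries, without the 2 libraries farthest from the median score, in SAL-sired libraries alone and in MOR-sired libraries alone, and 1 with the serotonin score as a covariate, an alternative chosen after seeing the data. A log2 fold change of at least 1 left 6 genes higher in VTA. A slope of at least 0.5 along the striatal score left 10 genes, 5 rising and 5 falling. SAL-sired libraries alone gave 22 falling genes, and the cortical score as a covariate gave 12 genes, 10 rising and 2 falling. Among single genes the sign turned in 2 cases: Kcnk9 between regions was at 0.54 in the MOR-sired libraries and Kcnip4 at -0.037 without SAL-sired VTA 2 and the Xist libraries. The cause was not tested. Scaling by library totals moved the median of all genes between regions from 0.03 to 0.12, of the VTA sire comparison from -0.01 to -0.09 and of the difference of sire effects from 0.00 to -0.11.

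Replicate numbers are shared between groups, but same-numbered SAL-sired and MOR-sired libraries of a region did not deviate together. Their correlations ran from -0.256 to 0.0945 in NAC and from -0.131 to 0.133 in VTA. Same-numbered NAC and VTA libraries were not compared in this way. With a replicate block, 0 channel genes were called in the NAC, VTA and difference comparisons and 62 between the regions (46 lower and 16 higher).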
